A study of Vigna subterranea with 10 samples.

Results

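The comparison described here set leaflets of bambara groundnut (Vigna subterranea) plants kept at 18 °C against leaflets of the same plants kept earlier at 23 °C, with 3 arrays at each temperature. Bambara groundnut is a drought-tolerant African grain legume of warm climates, and its RNA was hybridised to a soybean array, the Affymetrix Soybean GeneChip. Described are the 7017 of 36578 soybean probe sets (19.2%) that had a mean log2 value of at least 10 over all 9 RNA arrays, a limit set on the level and not on the difference. All 9 leaflets came from 3 plants of genotype S19-3 under a 12 hour photoperiod, first at 27 °C (optimal), then at 23 °C (sub-optimal) and finally at 18 °C (very sub-optimal), each plant giving a single mature leaflet at every stage. The design asks what the further drop added to the mild one.

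Temperature, the order of sampling, leaf and plant age and earlier leaflet removal changed together and cannot be told apart. The labels and the paper disagree on how long the plants stayed at each temperature, so no duration is given. Replicate numbers were not tied to plants, and the p-values cover only leaflet-to-leaflet spread among 3 plants of a single genotype. In such bulk tissue, fewer cells of a type and less RNA per cell cannot be told apart. Since the probes were designed for soybean, a value may also sum RNA of related family members.

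In warm-climate legumes, chilling slows photosynthesis, sugar export and growth. Starch made in the chloroplast is broken down to sugars and sugar phosphates, which feed glycolysis and mitochondrial respiration. Leaves also take up nitrite and sulfate into amino acids in the plastid, remodel the desaturation of their membrane lipids, and keep time with a circadian clock.

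Just outside the limit lay TRICHOME BIREFRINGENCE-LIKE 38 (mean 9.998) and CYP98A2 (9.99), and just inside it OSBP (10.0006) and an O-methyltransferase (10.0075). Over the 7017 probe sets, arrays of the same temperature correlated across probe sets at 0.910 to 0.941 and arrays of different temperatures at 0.842 to 0.907. The array medians over all probe sets averaged 0.11 lower at 18 °C than at 23 °C, whereas over the 7017 they averaged 0.09 higher. Of 24 leaf marker probe sets, for light-harvesting proteins, photosystem subunits, Rubisco and Rubisco activase, 17 lay above the limit. Over all 24 the median level was 15.9 and the highest 18.3. Of 38 probe sets for nodulins, seed proteins and vegetative storage proteins 3 lay above it, the array symbols GY1 (11.8) and KTI-3 (10.8 and 10.3). Over all 38 the median level was 6.26, with medians of 6.22 at 18 °C, 6.43 at 23 °C and 6.74 at 27 °C. In all, 1312 values lay above 16, the ceiling of the scanner on the log2 scale, all of them in the 7017 probe sets, and 1434 lay below 0, none of them in the 7017. A further step of unknown kind may therefore lie behind the values, and a difference may not equal a true log2 fold change.

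At 18 °C against 23 °C, 300 of the 7017 probe sets differed (4.28% called; limma, adjusted p under 0.05), of which 179 were higher (2.55%) and 121 lower (1.72%). In all 300 the 3 values at 18 °C did not overlap the 3 at 23 °C, which held for 2168 of the 7017 (30.9%). Over all 36578 probe sets 345 passed (0.943%). The rises had a median of 1.30 log2 units and the falls of -1.04. Differences beyond 2 units were found for 43 probe sets, 31 higher and 12 lower. The calls of 90 probe sets, 62 higher and 28 lower, held when each array in turn was left out. The count rests on a prior variance that varies with level: with a constant one none of the 7017 passed (781 at an unadjusted p under 0.05). The count fell to 100 without 23 °C replicate 3, to 130 without 18 °C replicate 1, to 160 and 163 without 18 °C replicates 3 and 2 and to 184 without 23 °C replicate 1. With each array centred on its median, 264 were higher and 77 lower, 77.4% higher against 59.7% as deposited, since centring added 0.11 to every difference, and quantile normalisation gave 166 and 138. The median difference over the 7017 was 0.04 as deposited, 0.15 centred and -0.003 after quantile normalisation.

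**Figure D1:**
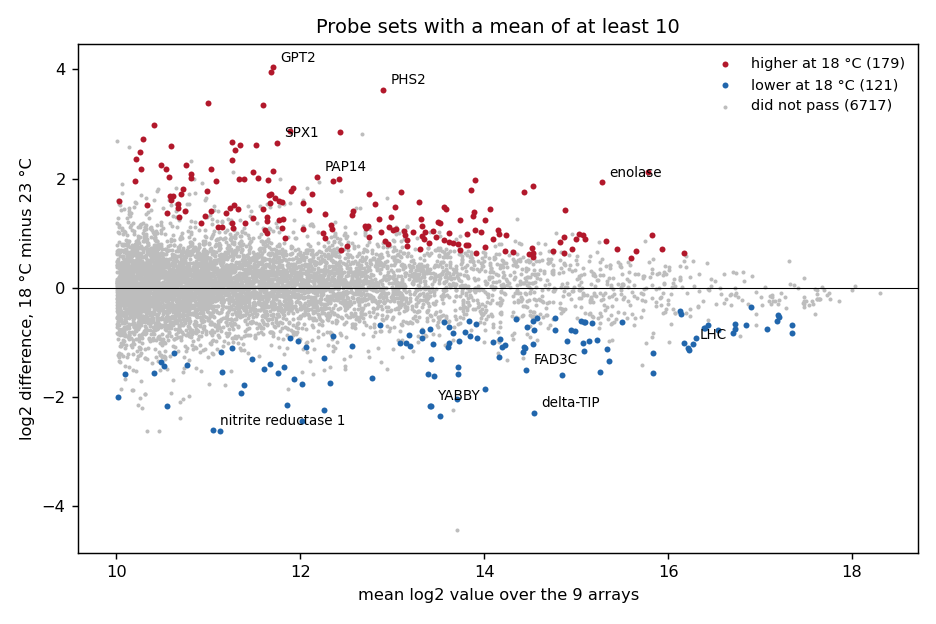
Each point is 1 of the 7017 probe sets, with the mean log2 value over the 9 arrays on the x axis and the log2 difference of 18 °C minus 23 °C on the y axis. The 179 rises reached 4.04 and the 121 falls -2.62, and larger differences that did not pass lay mainly near the lower limit of 10.

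A usable name was available for 146 of the 300, 87 higher and 59 lower. Array symbols named 360 of the 7017, of which 8.61% passed. The study's descriptions named 518, of which 24.5% passed, but those probe sets were picked as changed on these same arrays, so groups built from them are not independent evidence of their direction. Below, abbreviations such as MDH-1 or NIR are array symbols, and names written out are the study's descriptions. Values are log2 values of single arrays or means, differences are log2 units ± SE from the limma fit (n = 3 each), and adjusted p-values are over all 36578 probe sets.

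Sugar phosphates and starch gave the largest named rises. Glucose-6-phosphate/phosphate translocator 2 (GPT2), which carries glucose 6-phosphate across the plastid envelope, had 13.61, 14.81 and 14.35 at 18 °C, against 10.23, 10.11 and 10.30 at 23 °C. The 18 °C leaflets stood clear of all others, since the 27 °C leaflets had 10.34, 11.51 and 10.08. The difference was 4.04 ± 0.37 (adjusted p = 0.00078). Alpha-glucan phosphorylase 2 (PHS2), which releases glucose 1-phosphate from glucans and is cytosolic in Arabidopsis, had 14.85, 15.30 and 15.46 at 18 °C, against 11.85, 11.43 and 11.44 at 23 °C, a rise of 3.63 ± 0.21 (adjusted p = 6.85e-05). Another probe set of the same description did not pass and lay the other way, with means of 13.19 ± 0.17 at 18 °C and 13.77 ± 0.13 at 23 °C (SD, n = 3 each, adjusted p = 0.0887).

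A further translocator-related gene of the GPT type rose by 1.95 ± 0.20 (adjusted p = 0.00129), with 13.27, 13.54 and 13.91 at 18 °C, against 11.64, 11.52 and 11.69 at 23 °C. Starch branching enzyme 2.2, which introduces the branches of amylopectin, rose by 0.86 ± 0.16 (adjusted p = 0.0302). Of the 10 probe sets for starch and soluble sugars these 4 rose, none fell (1 did with quantile normalisation), and the median difference was 1.00, against 0.04 over the 7017. All 4 carried the study's description, and none of the 4 with an array symbol passed. Among these, the beta-amylase BMY2, an enzyme that releases maltose, had differences of 1.93 ± 0.43 (adjusted p = 0.0741) and 1.14 ± 0.30 (adjusted p = 0.138), while the sucrose transporter SUT1 had -0.10 ± 0.30 (adjusted p = 0.955). Only for starch branching enzyme 2.2 did leaving out an array end the call, which happened without 18 °C replicates 1, 2 or 3, 23 °C replicates 2 or 3, or 27 °C replicates 2 or 3 (adjusted p = 0.0501 to 0.136).

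Enzymes of glycolysis and of organic acids rose in several of their steps, and none fell. Of 34 probe sets for glycolysis, the pentose phosphate pathway and organic acids, 12 rose, 28 had a positive difference, and the median was 0.51. By array symbol 3 of 11 rose and by the study's description 9 of 23. The list was added after values were seen, so these counts are not independent evidence of a direction. Enolase, which makes phosphoenolpyruvate, had 16.52, 16.38 and 16.66 at 18 °C, against 14.77, 14.35 and 14.64 at 23 °C, a rise of 1.93 ± 0.17 (adjusted p = 0.000714). At 27 °C it had 14.73, 15.05 and 14.40, so only the 18 °C leaflets stood apart. A cytosolic glyceraldehyde-3-phosphate dehydrogenase (C subunit), of the step that first yields reducing power in glycolysis, had 12.87, 12.84 and 12.74 at 18 °C, against 11.34, 11.25 and 10.95 at 23 °C, a rise of 1.64 ± 0.19 (adjusted p = 0.00311). No probe set with the array symbol GAPC1, also for the cytosolic enzyme, passed. Those are among the reference-type genes given below, with differences of 0.52 to 1.12. A pyruvate kinase, which ends glycolysis, rose by 0.97 ± 0.13 (adjusted p = 0.0066).

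The array symbol MDH-1, for a malate dehydrogenase, marked a probe set with 13.54, 13.04 and 14.02 at 18 °C, against 11.60, 9.09 and 9.75 at 23 °C. Its rise of 3.39 ± 0.55 (adjusted p = 0.0172) rested on widely spread 23 °C values. The other 2 probe sets with that symbol did not pass, with 0.71 ± 0.28 and 0.42 ± 0.14. A phosphoglycerate mutase family gene, named for a neighbouring step of glycolysis, had 12.62, 11.66 and 12.18 at 18 °C, against 10.12, 9.41 and 7.96 at 23 °C, a rise of 2.99 ± 0.47 (adjusted p = 0.014). The enzyme phosphoenolpyruvate carboxykinase 1, which turns oxaloacetate into phosphoenolpyruvate, rose by 1.30 ± 0.22 (adjusted p = 0.0212). The alpha subunit of succinyl-CoA ligase, of the citric acid cycle, had 14.78, 14.74 and 15.05 at 18 °C, against 13.37, 13.06 and 12.80 at 23 °C, a rise of 1.78 ± 0.17 (adjusted p = 0.00115). Smaller rises were those of an acetyltransferase subunit of pyruvate dehydrogenase (0.81 ± 0.14), ATP-citrate lyase B-1 (0.74 ± 0.11), succinate dehydrogenase 1-1 (0.62 ± 0.12) and both GND probe sets (0.98 ± 0.12 and 1.09 ± 0.22), with adjusted p-values of 0.0217, 0.0113, 0.0356, 0.00337 and 0.0447 in that order.

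The count of 12 fell to 5 without 18 °C replicate 1, to 6 without 23 °C replicate 3 and to 7 in a fit of the 6 arrays compared, and reached 17 with arrays centred. The MDH-1 call ended without 23 °C replicate 3 or 18 °C replicates 1 or 3 (adjusted p = 0.0777 to 0.0911), and that of the phosphoglycerate mutase without 18 °C replicates 1 or 3 (adjusted p = 0.0614 and 0.0808). That of phosphoenolpyruvate carboxykinase 1 ended without any 23 °C replicate or without 18 °C replicates 1 or 2 (adjusted p = 0.0526 to 0.0934). Among the smaller rises all but the GND probe set at 0.98 lost their call without 23 °C replicate 3 or 18 °C replicate 1, and all of these but ATP-citrate lyase B-1 also under other omissions (adjusted p at most 0.162). The calls of enolase, glyceraldehyde-3-phosphate dehydrogenase, pyruvate kinase, succinyl-CoA ligase and the GND probe set at 0.98 held without any single array.

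The mitochondrial genes that passed rose, apart from a carrier. Of 18 probe sets for mitochondrial respiration, all but 3 of them named by description, 6 rose and 1 fell, with a median of 0.40. A component of the outer membrane translocase, through which proteins enter the mitochondrion, had 15.65, 15.86 and 15.75 at 18 °C, against 14.85, 14.69 and 14.78 at 23 °C, a rise of 0.98 ± 0.10 (adjusted p = 0.00149). The delta/epsilon subunit of the F1 ATPase, the enzyme that makes ATP, rose by 0.83 ± 0.11 (adjusted p = 0.00527). Alternative NAD(P)H dehydrogenase 1, which passes electrons into the respiratory chain without pumping protons, had 11.13, 11.03 and 11.08 at 18 °C, against 9.60, 9.77 and 9.10 at 23 °C, a rise of 1.59 ± 0.28 (adjusted p = 0.0236). A mitochondrial substrate carrier fell, with 8.74, 9.47 and 8.84 at 18 °C, against 10.80, 11.17 and 11.60 at 23 °C (-2.17 ± 0.29, adjusted p = 0.00518). Without 18 °C replicate 1 or without 23 °C replicate 3 the 6 rises were 3, and the dehydrogenase call ended without any 18 °C replicate or without 23 °C replicates 1 or 3 (adjusted p = 0.0558 to 0.104).

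Of 12 probe sets tied to phosphate starvation 2 rose, with a list median of 0.44. SPX domain gene 1, whose Arabidopsis counterpart restrains the phosphate starvation response, had 13.66, 13.79 and 14.38 at 18 °C, against 11.60, 10.96 and 11.28 at 23 °C, a rise of 2.66 ± 0.26 (adjusted p = 0.00115). PAP14, an array symbol for a purple acid phosphatase, had 12.89, 12.97 and 13.10 at 18 °C, against 11.41, 10.38 and 11.06 at 23 °C, a rise of 2.03 ± 0.24 (adjusted p = 0.00337). The 27 °C leaflets had 12.39, 12.79 and 12.68, so for PAP14 the 23 °C leaflets were the low ones. The calls of SPX domain gene 1 and PAP14 held without any single array. Purple acid phosphatase 17, with means of 14.37 at 18 °C, 12.90 at 23 °C and 7.74 at 27 °C, did not pass at this step (1.47 ± 0.56, adjusted p = 0.366). A pyridoxal phosphate phosphatase-related gene with means of 15.22 at 18 °C, 13.62 at 23 °C and 7.26 at 27 °C did not pass either (1.61 ± 0.60, adjusted p = 0.353).

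All 11 probe sets for the proteasome, which degrades proteins, had a positive difference, between 0.34 and 1.11, and 4 rose: proteasome beta subunit C1 by 0.93 ± 0.12 (adjusted p = 0.00509), PAA1 by 0.95 ± 0.16 (adjusted p = 0.0203) and 2 of the 3 PAE1 probe sets by 0.69 ± 0.13 (adjusted p = 0.0382) and 0.56 ± 0.11 (adjusted p = 0.0336). This list was added after values were seen, so its counts are not independent evidence of a direction. PAA1 and PAE1 are subunits of the outer rings of the proteasome core. Beta subunit C1 had 14.04, 14.02 and 14.16 at 18 °C, against 13.12, 13.22 and 13.08 at 23 °C, and this call alone of the 4 held without any single array. Without 18 °C replicates 1, 2 or 3 or 23 °C replicates 1 or 3 it was the only one left, and without 23 °C replicate 2 or 27 °C replicates 2 or 3 there were 2. All 6 probe sets for the reference-type genes tubulin, ubiquitin and GAPC1 had positive differences of 0.52 to 1.12 with a median of 0.64, and none passed, but 1 did with arrays centred or quantile normalised.

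Of 20 probe sets for chaperones 3 rose and none fell (median 0.51). PDIL-2, a protein disulfide isomerase, had 12.84, 12.57 and 13.05 at 18 °C, against 11.29, 10.64 and 11.23 at 23 °C, a rise of 1.76 ± 0.23 (adjusted p = 0.00509). An HSP20-like chaperone rose by 0.97 ± 0.14 (adjusted p = 0.00893), and CCT-D, listed with the chaperonins, by 1.95 ± 0.33 (adjusted p = 0.0212). Less the change of 23 °C minus 27 °C, these 3 gave 2.53 for PDIL-2, 1.35 for the HSP20-like chaperone and 3.19 for CCT-D. All passed in the limma fit (adjusted p = 0.0241, 0.0438 and 0.0421) but ended under most omissions. Since they exceed the rises, the 23 °C means lay below those at 27 °C. At that first step the list median was -0.37. With arrays centred 5 rose. Of 26 probe sets for protein synthesis 5 rose and 1 fell, with a median of 0.27. Named by the study's description only were 22 of them, with 4 of the rises and the fall. Since 24.5% of all described probe sets passed, little can be read from this count. Elongation factor 5A-1, a translation factor, rose in both of its probe sets, by 1.01 ± 0.13 (adjusted p = 0.0039) and 0.78 ± 0.13 (adjusted p = 0.0177), ribosomal protein S4 by 0.86 ± 0.16 (adjusted p = 0.0287), RPS13 by 0.79 ± 0.15 (adjusted p = 0.0394) and a ribosomal protein of the L1p/L10e family by 0.72 ± 0.14 (adjusted p = 0.0414). The fall was that of plastid ribosomal protein L11, by 0.76 on the log2 scale (SE 0.14, adjusted p = 0.0351), which had 13.02, 12.75 and 12.97 at 18 °C, against 13.81, 13.65 and 13.57 at 23 °C.

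In these lists the larger-changed elongation factor probe set, PDIL-2 and the HSP20-like chaperone held without any single array. The CCT-D call ended without any 18 °C replicate or without 23 °C replicates 1 or 2, and that of the other elongation factor probe set without 23 °C replicates 2 or 3 or 18 °C replicates 1 or 2 (adjusted p at most 0.0867). The S4 call ended without 27 °C replicate 2, 23 °C replicates 2 or 3 or any 18 °C replicate, that of RPS13 without any array but 18 °C replicate 3, that of L1p/L10e without any array but 27 °C replicate 3, and that of L11 without any array but 27 °C replicate 1, with adjusted p at most 0.158. Without 18 °C replicates 1 or 2, or 23 °C replicates 2 or 3, a single protein synthesis rise was left, without 27 °C replicate 2 there were 2, without 27 °C replicate 1, 23 °C replicate 1 or 18 °C replicate 3 there were 3, and the L11 fall did not pass with arrays centred.

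Among the named falls, nitrite reductase, which reduces nitrite to ammonium in the plastid, stood first. The probe set described as nitrite reductase 1 had 9.50, 9.05 and 9.37 at 18 °C, against 11.97, 12.03 and 11.76 at 23 °C, a difference of -2.61 ± 0.21 (adjusted p = 0.000429). With 12.08, 11.86 and 11.86 the 27 °C leaflets were at the 23 °C level. The array symbol NIR marked another 2 probe sets, with differences of -2.24 ± 0.27 (adjusted p = 0.00337) and -1.39 ± 0.26 (adjusted p = 0.0309). These were 3 of 6 nitrogen probe sets, all 6 with a negative difference (median -0.997), while the nitrate transporter NRT1-3 and the glutamine synthetase GS1alpha did not pass (-0.60 to -0.26). The smaller NIR call ended with arrays centred and without 18 °C replicates 2 or 3, any 23 °C replicate or 27 °C replicate 3 (adjusted p = 0.0528 to 0.102), which left 2 falls.

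Of 13 probe sets for sulfur assimilation 2 fell and none rose, with a median of -0.28. Response to low sulfur 2, whose Arabidopsis family is induced by sulfur deficiency, had 12.79, 13.01 and 12.90 at 18 °C, against 14.62, 14.54 and 14.29 at 23 °C (-1.58 ± 0.14, adjusted p = 0.000714). OAS-TL3, an array symbol for an enzyme that makes cysteine from O-acetylserine, had 14.58, 15.06 and 14.39 at 18 °C, against 16.26, 16.33 and 16.05 at 23 °C (-1.54 ± 0.24, adjusted p = 0.0123). For both, the 23 °C leaflets were the high ones, since the 27 °C leaflets had 13.69, 13.65 and 13.91 for response to low sulfur 2 and 15.44, 14.42 and 14.77 for OAS-TL3. The OAS-TL3 call ended without any 23 °C replicate or without 18 °C replicates 1 or 3 (adjusted p at most 0.0677), which left 1 fall.

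**Figure D2:**
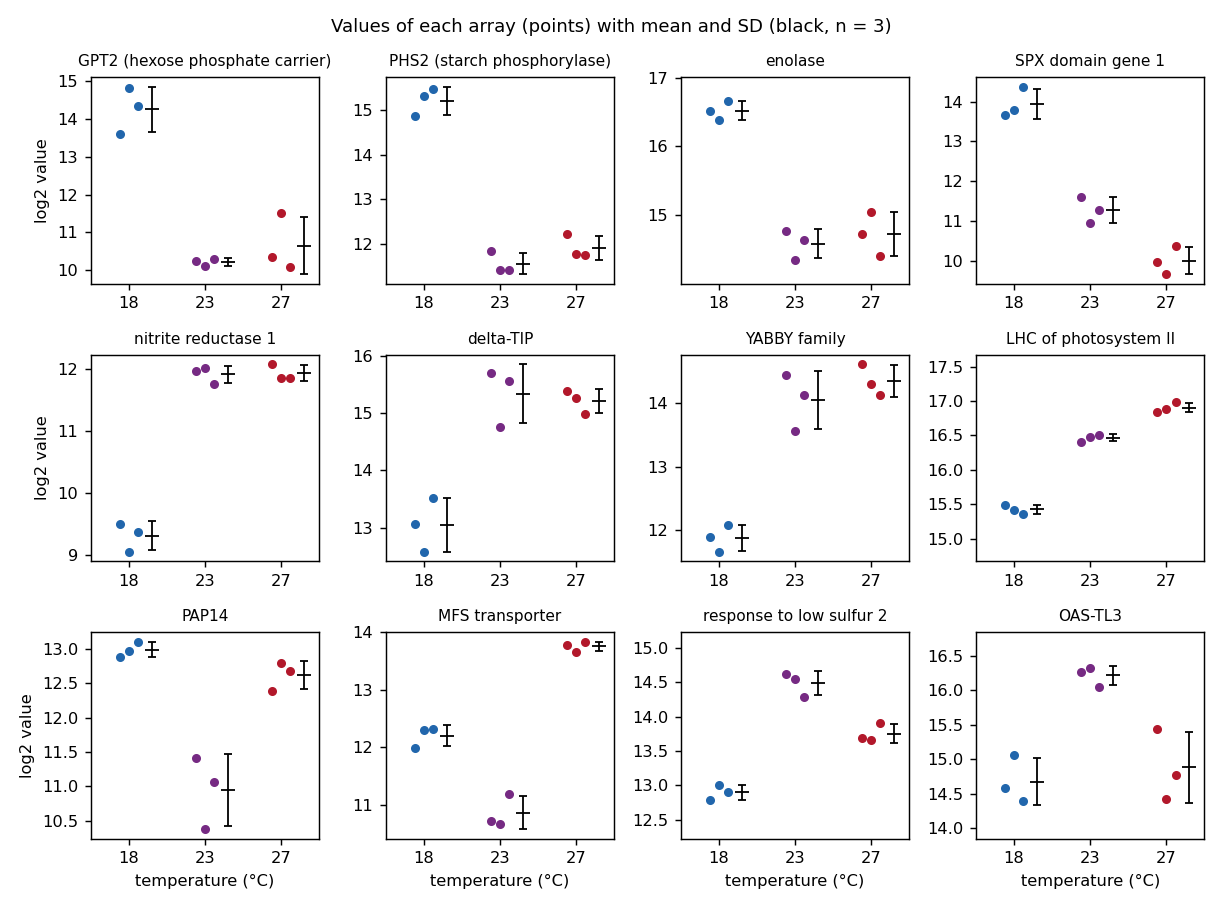
Log2 values of single arrays (points) at 18, 23 and 27 °C for 12 probe sets, with the mean and SD of 3 arrays beside them in black. In the upper row the 18 °C points lie above all others, in the middle row below all others, and in the lower row the 23 °C leaflets are the extreme ones.

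All 25 photosystem and light-harvesting probe sets had a negative difference, between -1.14 and -0.10, and 18 fell, with a median of -0.74. All 18 were among the 20 that the study had described as changed, and of 5 with an array symbol none passed (median -0.83). A light-harvesting protein of photosystem II had 15.49, 15.42 and 15.36 at 18 °C, against 16.41, 16.48 and 16.50 at 23 °C (-1.04 ± 0.08, adjusted p = 0.000429), and was higher again at 27 °C, with 16.85, 16.88 and 16.98. A light-harvesting protein of photosystem I had 16.02, 16.0045 and 16.03 at 18 °C, against 16.82, 16.87 and 16.87 at 23 °C (-0.84 ± 0.07, adjusted p = 0.000714). Photosystem I subunit F fell the most, with 15.30, 15.76 and 15.17 at 18 °C, against 16.45, 16.66 and 16.54 at 23 °C (-1.14 ± 0.16, adjusted p = 0.00654). These groups did not overlap, and all 3 calls held without any single array. The petM subunit of the cytochrome b6f complex, which links both photosystems, changed by -1.12 ± 0.19 (adjusted p = 0.0225), a call that ended without 23 °C replicates 2 or 3 or 18 °C replicates 1 or 3 (adjusted p = 0.0755 to 0.113).

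The 18 falls were 10 without 23 °C replicate 3, 11 without 18 °C replicate 1, 12 without 23 °C replicate 1 or in a fit of the 6 arrays compared, and 14 with arrays centred. The leaf markers, which overlap this list, had a median of 15.3 at 18 °C, 16.1 at 23 °C and 16.2 at 27 °C over all 24. GBF's pro-rich region-interacting factor 1, known in Arabidopsis also as the chloroplast development factor GOLDEN2-LIKE 1, had 9.997, 10.20 and 9.91 at 18 °C, against 11.30, 11.82 and 11.64 at 23 °C (-1.55 ± 0.20, adjusted p = 0.00484). In the Calvin cycle and photorespiration list of 10, FBP, the array symbol of fructose-bisphosphatase, fell by 1.03 on the log2 scale (SE 0.19, adjusted p = 0.0302) and serine hydroxymethyltransferase 3 rose by 1.10 ± 0.20 (adjusted p = 0.0265). Both of these calls ended without any 18 °C replicate or without 23 °C replicates 2 or 3, the fall also without 27 °C replicate 1 and the rise also without 23 °C replicate 1 (adjusted p at most 0.141). The 2 probe sets of Rubisco activase (RCA14) did not pass, with -0.05 ± 0.09 and -0.11 ± 0.11.

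Both desaturases that passed were lower at 18 °C. FAD3C and FAD8.2 are array symbols of omega-3 desaturases, which add the last double bond of trienoic membrane lipids, in the endoplasmic reticulum and the plastid of Arabidopsis. FAD3C had 13.75, 13.57 and 13.69 at 18 °C, against 15.59, 14.81 and 15.14 at 23 °C (-1.51 ± 0.17, adjusted p = 0.00278). FAD8.2 had 14.97, 15.56 and 15.21 at 18 °C, against 16.19, 16.57 and 16.59 at 23 °C (-1.21 ± 0.19, adjusted p = 0.0128). For both, 18 °C minus 23 °C also differed from 23 °C minus 27 °C in the limma fit. The differences were -2.16 for FAD3C (adjusted p = 0.014) and -1.83 for FAD8.2 (adjusted p = 0.0404). These exceed the falls in size, so the 23 °C means lay above those at 27 °C, though no lipid probe set passed at that first step. Leaving out 23 °C replicate 3 ended both (adjusted p at most 0.196 over all omissions). Of 11 lipid probe sets these 2 fell and peroxisomal 3-ketoacyl-CoA thiolase 3, of fatty acid breakdown, rose by 0.87 ± 0.14 (adjusted p = 0.0132). The FAD8.2 call ended without 23 °C replicates 2 or 3 or 18 °C replicates 1 or 3 (adjusted p at most 0.08), and the thiolase call without 23 °C replicates 1 or 3 or 18 °C replicates 1 or 2 (adjusted p at most 0.0814).

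Of 16 probe sets for aquaporins, the water channels, 3 fell, 2 of them for the same gene, and 13 had a negative difference, with a median of -0.56. Tonoplast proteins joined this list after values were seen. Delta tonoplast integral protein, a channel of the vacuolar membrane, fell in both of its probe sets. The brighter had 13.06, 12.58 and 13.51 at 18 °C, against 15.71, 14.75 and 15.57 at 23 °C (-2.29 ± 0.27, adjusted p = 0.00311), and the other changed by -1.86 ± 0.30 (adjusted p = 0.0159). PIP1-10, of the plasma membrane, fell by 0.55 on the log2 scale (SE 0.11, adjusted p = 0.0391). The PIP1-10 call ended when any single array was left out (adjusted p = 0.062 to 0.159) and with arrays centred. That of the second tonoplast probe set ended without 23 °C replicates 1 or 3 or 18 °C replicates 1 or 2 (adjusted p at most 0.0911), so that without 23 °C replicates 1 or 3 or 18 °C replicate 1 a single fall was left. PIP2-6 had a positive difference and did not pass (1.26 ± 0.28, adjusted p = 0.0699), and with arrays centred or without 23 °C replicate 2 the list held 1 rise beside 2 falls.

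Of 17 cell wall probe sets 4 rose and 1 fell. The fall and 3 of the rises were among the 9 named by the study's description only, of a kind picked as changed on these arrays. By array symbol 1 of 8 rose. Glucan synthase-like 3, of the family that makes callose, had 14.75, 14.56 and 14.69 at 18 °C, against 12.83, 13.22 and 13.27 at 23 °C, a rise of 1.56 ± 0.21 (adjusted p = 0.00518) that held without any single array. PRP2, a proline-rich wall protein of soybean, had 15.27, 13.94 and 14.74 at 18 °C, against 10.97, 12.89 and 11.54 at 23 °C, a rise of 2.85 ± 0.49 (adjusted p = 0.0217). A COBRA-like protein rose by 1.51 ± 0.29 (adjusted p = 0.04) and reversibly glycosylated polypeptide 2 by 1.11 ± 0.22 (adjusted p = 0.0414). Expansin A8, which loosens walls, had 13.29, 10.95 and 12.54 at 18 °C, against 14.55, 14.19 and 14.55 at 23 °C (-2.17 ± 0.44, adjusted p = 0.0463). The COBRA-like and polypeptide 2 calls ended when any single array was left out (adjusted p at most 0.165), the PRP2 call without 18 °C replicates 1 or 3 or 23 °C replicates 1 or 3 (adjusted p at most 0.106), and the expansin call without any array but 18 °C replicates 1 or 2 (adjusted p at most 0.168). With 23 °C replicates 1 or 3 or 18 °C replicates 1 or 3 left out a single rise remained, and 2 without 18 °C replicate 2 or any 27 °C replicate.

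Redox genes were split. Of 34 probe sets for antioxidants and glutathione 4 rose and 2 fell, with a median of 0.08. All of these calls were among the 18 named by the study's description only, and none of the 16 with an array symbol passed. Since 24.5% of all described probe sets passed, little can be read from this count. A thioredoxin family gene rose in both of its probe sets, by 1.21 ± 0.14 (adjusted p = 0.00311) and by 1.30 ± 0.14 (adjusted p = 0.00149), the larger rise with 13.82, 13.94 and 13.80 at 18 °C, against 12.70, 12.45 and 12.52 at 23 °C. A peroxidase had 12.44, 12.43 and 12.94 at 18 °C, against 9.30, 11.16 and 9.57 at 23 °C, a rise of 2.60 ± 0.46 (adjusted p = 0.0245), and a glutathione S-transferase rose by 0.93 ± 0.15 (adjusted p = 0.0174). Another thioredoxin superfamily gene changed by -0.96 ± 0.15 (adjusted p = 0.0121) and catalase 2 by -0.36 ± 0.07 (adjusted p = 0.0345). The thioredoxin family calls held without any single array, that of catalase 2 ended when any was left out (adjusted p at most 0.128), and those of the peroxidase and the transferase ended without 23 °C replicates 1 or 3 or 18 °C replicates 1 or 2, among others (adjusted p at most 0.116). The -0.96 call ended without 23 °C replicate 3 or 18 °C replicates 2 or 3 (adjusted p at most 0.0713). Without 23 °C replicates 1 or 3 or 18 °C replicates 1 or 2 there were 2 rises, and without 23 °C replicate 3 or 18 °C replicates 2 or 3 no fall.

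Further rises lay outside these lists. An EamA-like transporter of the nodulin MtN21 family had 14.35, 14.15 and 14.63 at 18 °C, against 11.51, 11.41 and 11.58 at 23 °C, a rise of 2.88 ± 0.26 (adjusted p = 0.000714). An aldolase-type TIM barrel protein rose by 2.62 ± 0.26 (adjusted p = 0.00115), with 13.36, 13.30 and 13.19 at 18 °C, against 10.44, 11.29 and 10.27 at 23 °C. An NPH3 family protein, of a family that acts in phototropism, rose by 2.33 ± 0.24 (adjusted p = 0.00149), with 13.21, 12.96 and 13.00 at 18 °C, against 11.09, 10.43 and 10.65 at 23 °C. The gene described as RH39, an RNA helicase, rose by 2.73 ± 0.38 (adjusted p = 0.0069), and S-adenosyl-L-homocysteine hydrolase, which clears the by-product of methyl transfer, by 1.74 ± 0.13 (adjusted p = 0.000429). These 5 calls held without any single array, the last gene being chosen after its values were seen. Nucleotide transporter 1 rose by 2.09 ± 0.30 (adjusted p = 0.00861), an AMP-dependent synthetase by 2.53 ± 0.49 (adjusted p = 0.0391) and ALDH7B1, an aldehyde dehydrogenase, by 2.25 ± 0.37 (adjusted p = 0.0187). The first of these ended only without 23 °C replicate 3 (adjusted p = 0.0529), the synthetase without 18 °C replicates 1 or 2, 23 °C replicates 1 or 3 or any 27 °C replicate (adjusted p at most 0.157), and ALDH7B1 without 23 °C replicate 3 or any 18 °C replicate (adjusted p at most 0.0839).

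Among the 42 probe sets of the transcription factor list there were 1 rise and 1 fall, a share near the 4.28% called over the 7017. Their median of -0.07 turned to 0.04 with arrays centred. The list did not hold every regulator. GBF's pro-rich region-interacting factor 1 and the CONSTANS-like COL10, given in other paragraphs, were outside it and fell. A YABBY factor, of a family that sets the lower side of leaves, had 11.89, 11.66 and 12.07 at 18 °C, against 14.44, 13.55 and 14.13 at 23 °C (-2.17 ± 0.22, adjusted p = 0.00146), which held without any single array. WRKY23 rose by 1.18 ± 0.21 (adjusted p = 0.0283), a call that ended without any 18 °C or 23 °C replicate or without 27 °C replicate 2 (adjusted p at most 0.108). The study singled out 9 transcription factors in another comparison, 18 °C against 27 °C, and none of them passed at 18 °C against 23 °C. Of the 4 above the limit, WHIRLY2 had 0.92 ± 0.24 (adjusted p = 0.13), NAC17 0.39 ± 0.21, MYB173 -0.05 ± 0.17 and MYB118 -0.44 ± 0.17. Below the limit, WRKY70 had 6.91, 7.34 and 6.55 at 18 °C, against 9.05, 9.54 and 8.71 at 23 °C (-2.17 ± 0.52, adjusted p = 0.0946), and NAC73, MYB25, GATA9 and MYB16 had 3.18 ± 1.38, 2.19 ± 1.32, -0.65 ± 0.76 and -0.76 ± 0.49.

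Of 7 clock and photoperiod probe sets, GIGANTEA, which acts in the clock and in flowering time, rose and COL10, a CONSTANS-like array symbol, fell. GIGANTEA had 12.44, 12.19 and 11.86 at 18 °C, against 10.38, 9.88 and 9.72 at 23 °C, and COL10 had 14.28, 14.25 and 14.32 at 18 °C, against 15.58, 15.46 and 15.31 at 23 °C. The sources used here do not give the time of day of sampling, and its part was not tested. An auxin efflux carrier was the single change among 9 auxin, gibberellin and cytokinin probe sets (1.98 ± 0.35, adjusted p = 0.0257), a call that ended without any 18 °C replicate or without 23 °C replicates 1 or 3 (adjusted p at most 0.12). ILR-like 6, of a family that frees auxin from amino acid conjugates, a CAP superfamily protein and a kelch repeat protein changed by -1.41 ± 0.29, -2.15 ± 0.42 and -1.58 ± 0.31, with adjusted p-values of 0.0481, 0.0414 and 0.04 that all lost their call under 8 or more of the 9 omissions (up to 0.144). None passed among 2 cold and dehydration, 7 flavonoid, 8 phenylpropanoid and 12 jasmonate, ethylene and wounding probe sets, whose medians were -0.07, -0.64, 0.09 and 0.08. With 4.28% called over the 7017, little can be read from these counts, and with arrays centred or quantile normalised 1 phenylpropanoid and 1 jasmonate, ethylene and wounding probe set passed as higher.

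**Figure D3:**
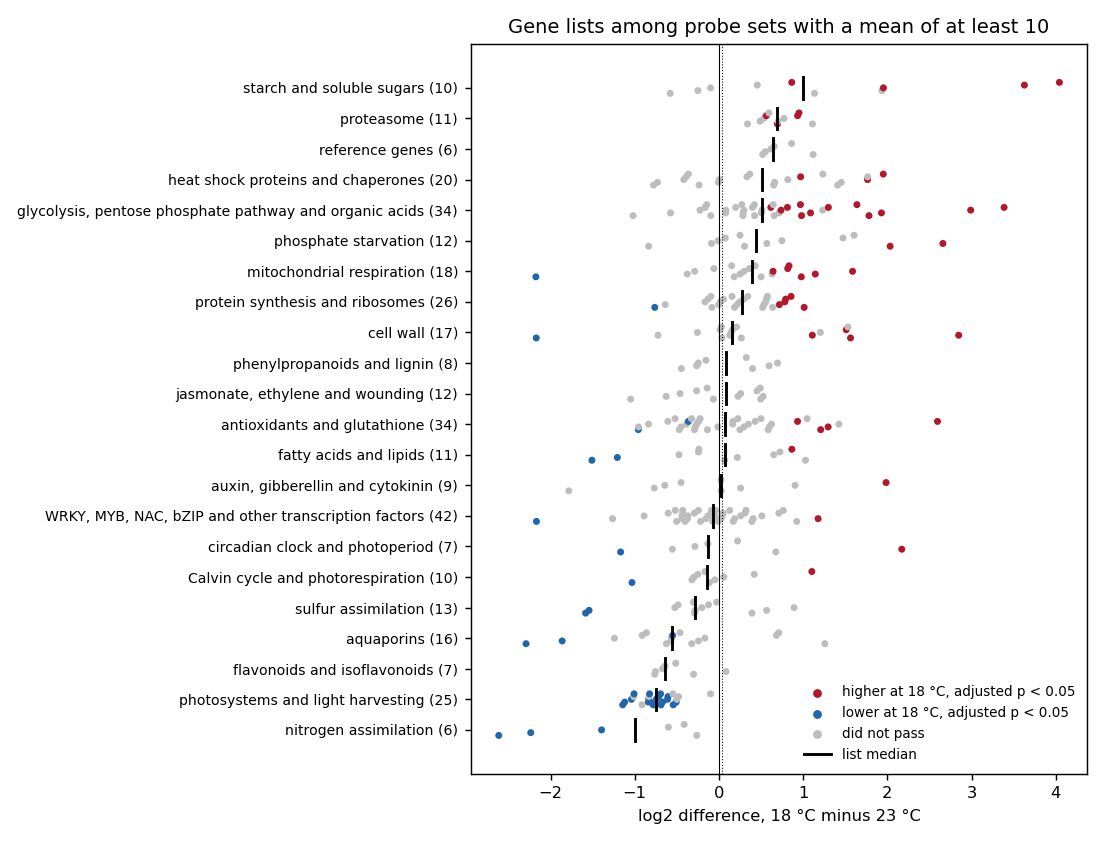
Log2 differences of 18 °C minus 23 °C for the probe sets of each gene list with at least 6 above the limit, ordered by the list median (black bars), with the number of probe sets in brackets. Starch and soluble sugars (median 1.00) lie at the top, photosystems (-0.74) and nitrogen assimilation (-0.997) at the bottom, and the dotted line marks the median of all 7017 (0.04).

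Whether the steps differed was tested as 18 °C minus 23 °C less 23 °C minus 27 °C, in the same limma fit. This difference can pass through a change in either step, so passing does not by itself place a change in the second step. The steps share the 23 °C arrays, which enter with opposite signs, so each step is also given by its own values. The steps differed for 148 of the 7017 probe sets (2.11% called), 85 of them more positive in the second step (1.21%) and 63 more negative (0.898%). Of the 300, 93 passed, 62 higher and 31 lower, and another 55 passed without a call at 18 °C against 23 °C. The first step, 23 °C against 27 °C, had changed 255 of the 7017 (3.63%), 151 of them higher (2.15%) and 104 lower (1.48%). The 148 fell to 40 without 23 °C replicate 3, to 57 without 23 °C replicate 1 or 27 °C replicate 2, to 70 without 23 °C replicate 2, to 85 and 87 without 27 °C replicates 3 and 1, and to 91 and 97 without 18 °C replicates 1 and 3, and 29 held in all 9 omissions.

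The leading carbohydrate genes did not pass in the first step and rose in the second. PHS2 changed by -0.35 ± 0.21 at 23 °C against 27 °C, and its steps differed by 3.98 ± 0.36 (adjusted p = 0.00225). GPT2 had -0.43 ± 0.37 at the first step and a step difference of 4.47 ± 0.64 (adjusted p = 0.0148), enolase -0.14 ± 0.17 and 2.07 ± 0.29 (adjusted p = 0.014), and succinyl-CoA ligase -0.55 ± 0.17 and 2.33 ± 0.30 (adjusted p = 0.00989). S-adenosyl-L-homocysteine hydrolase, with 15.73, 15.65 and 15.36 at 18 °C, against 13.90, 13.86 and 13.74 at 23 °C and 13.80, 14.06 and 13.79 at 27 °C, had a step difference of 1.80 ± 0.23 (adjusted p = 0.00943). Among the falls, nitrite reductase 1 had -0.01 ± 0.21 at the first step and a step difference of -2.60 ± 0.36 (adjusted p = 0.014), and COL10 had -0.05 ± 0.11 and -1.12 ± 0.18 (adjusted p = 0.0284). Of these step differences only that of PHS2 held without any single array. Those of GPT2 and nitrite reductase 1 ended without any 23 °C replicate (adjusted p at most 0.0756), that of enolase without 23 °C replicates 2 or 3 (at most 0.0667), those of succinyl-CoA ligase and the hydrolase without 23 °C replicate 3 (0.0603 and 0.0629), and that of COL10 under every omission (at most 0.113).

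A smaller group turned round between the steps, and was picked out after its values were seen. PAP14 fell by 1.67 on the log2 scale at 23 °C against 27 °C (SE 0.24, adjusted p = 0.0113) and rose at 18 °C, with a step difference of 3.70 ± 0.42 (adjusted p = 0.00562). A major facilitator superfamily transporter had 11.99, 12.30 and 12.32 at 18 °C, against 10.72, 10.66 and 11.19 at 23 °C and 13.78, 13.66 and 13.82 at 27 °C. Its changes were -2.89 ± 0.19 and then 1.34 ± 0.19 (adjusted p = 0.0066), which left the 18 °C leaflets below those at 27 °C. An RNA polymerase N subunit changed by -0.82 ± 0.13 and then by 1.32 ± 0.13 (adjusted p = 0.00115), with a step difference of 2.14 ± 0.22 (adjusted p = 0.00345). Another aldolase-type TIM barrel gene had 12.38, 12.54 and 12.45 at 18 °C, against 10.68, 10.66 and 10.94 at 23 °C and 11.72, 11.75 and 11.79 at 27 °C, with a step difference of 2.69 ± 0.29 (adjusted p = 0.00409). The opposite course was taken by response to low sulfur 2, which rose by 0.73 ± 0.14 and then fell (step difference -2.32 ± 0.24, adjusted p = 0.00345), and by OAS-TL3, which rose by 1.34 ± 0.24 and then fell (-2.88 ± 0.41, adjusted p = 0.0146). The step differences of all but OAS-TL3 held without any single array, and that of OAS-TL3 ended without any 23 °C replicate (adjusted p at most 0.0689).

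Some genes that had changed at 23 °C against 27 °C did not pass at 18 °C against 23 °C, yet their steps differed. Pseudo-response regulator 7, a clock repressor, had 10.31, 10.55 and 10.43 at 18 °C, against 9.64, 9.82 and 9.79 at 23 °C and 12.25, 11.95 and 12.72 at 27 °C. Its second step was 0.68 ± 0.24 (adjusted p = 0.305) and its step difference 3.23 ± 0.41 (adjusted p = 0.00939), which held without any single array. Heat shock protein 21, a chloroplast chaperone, had 12.98, 13.40 and 12.78 at 18 °C, against 13.84, 14.08 and 13.43 at 23 °C and 11.62, 11.16 and 11.88 at 27 °C, with a step difference of -2.96 ± 0.42 (adjusted p = 0.014) that ended without 23 °C replicates 1 or 2 (0.0628 and 0.0639). For MYB118 and PIP2-9 the step differences were -1.67 ± 0.29 and -2.20 ± 0.39 (adjusted p = 0.0363 and 0.0409), and both ended under most omissions (at most 0.174) and with arrays centred.

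Other named genes had changes of the same sign in both steps, without a step difference that passed. Such a result does not by itself show that a change continued, and not all of their first steps passed. The EamA-like transporter had already risen by 1.71 ± 0.26 at 23 °C (adjusted p = 0.0127), and its steps differed by 1.17 ± 0.45 (adjusted p = 0.445). For SPX domain gene 1 the first step was 1.27 ± 0.26 (adjusted p = 0.0582), for GIGANTEA 1.36 ± 0.28 (adjusted p = 0.0606), and their step differences were 1.39 ± 0.45 (adjusted p = 0.323) and 0.81 ± 0.49 (adjusted p = 0.702). None of the 25 photosystem probe sets had a step difference that passed, while 3 had fallen at the first step. The list median was then -0.17, and 0.05 for the 5 with an array symbol. The light-harvesting protein of photosystem II shown above was among these 3, with a first step of -0.44 ± 0.08 (adjusted p = 0.0349).

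**Figure D4:**
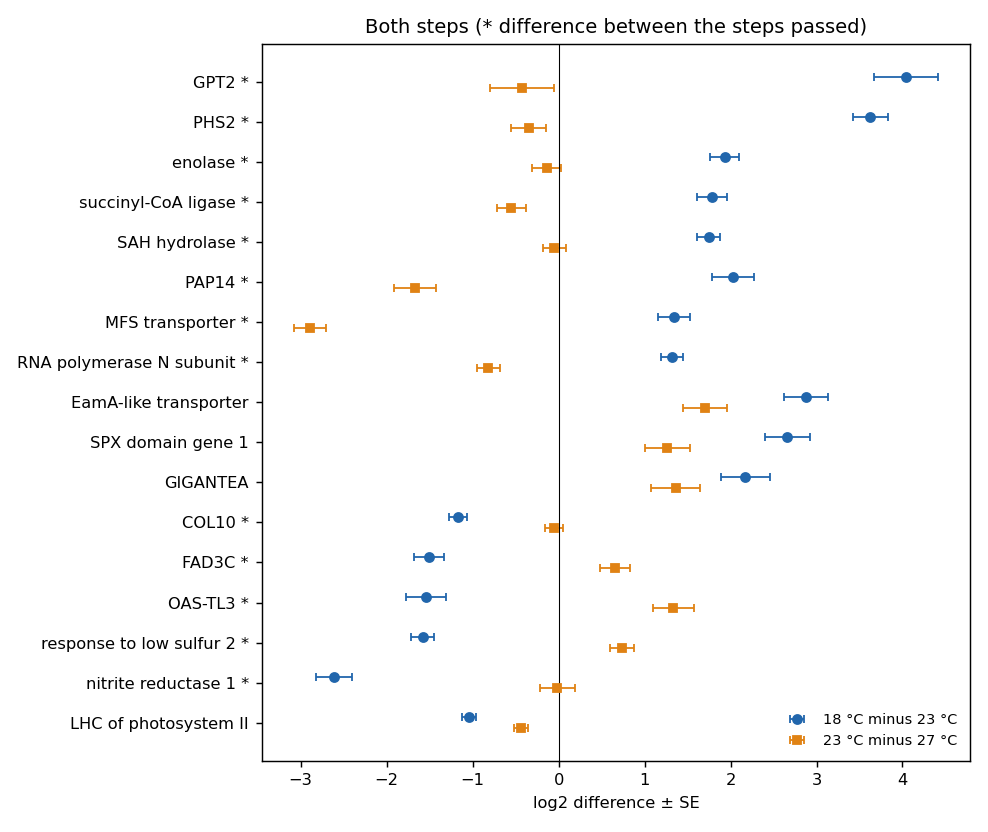
Log2 differences ± SE of the second step (18 °C minus 23 °C, circles) and the first step (23 °C minus 27 °C, squares) for 17 probe sets, with an asterisk where the difference between the steps passed. From GPT2 to S-adenosyl-L-homocysteine (SAH) hydrolase the squares lie closer to 0 than the circles, PAP14, the MFS transporter and the polymerase subunit lie on opposite sides in the 2 steps, and the EamA-like transporter, SPX domain gene 1 and GIGANTEA lie on the same side in both steps.

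Many of the 300 had no usable name, and their largest differences were near those of named genes. Probe set GmaAffx.17903.1.S1_at had 13.16, 14.56 and 13.47 at 18 °C, against 9.99, 10.57 and 8.76 at 23 °C, a rise of 3.95 ± 0.47 (adjusted p = 0.00311). Gma.10333.1.S1_at had 12.82, 13.83 and 14.29 at 18 °C, against 11.16, 9.68 and 10.05 at 23 °C, a rise of 3.35 ± 0.56 (adjusted p = 0.0198). The falls were led by GmaAffx.18508.1.S1_at (-2.62 ± 0.43, adjusted p = 0.0184) and GmaAffx.92642.1.S1_at (-2.44 ± 0.31, adjusted p = 0.00402). The first and the last of these held without any single array. The call of Gma.10333.1.S1_at ended without 23 °C or 18 °C replicates 2 or 3 and that of GmaAffx.18508.1.S1_at without 23 °C replicates 1 or 3 or 18 °C replicates 1 or 2 (adjusted p at most 0.0947).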

How the data were processed

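Leaflet RNA was hybridised to single-colour Affymetrix Soybean GeneChips, 3 arrays at each temperature. The authors deposited RMA log2 values made with a custom probe file that kept probes bound by bambara groundnut genomic DNA. The sources used here do not give the RMA version, the binding threshold behind the deposited table, the slide or the scan. The genomic DNA sample's column held 0 values. Array number limits the precision, with a median SE of 0.25 over the 7017 probe sets.

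The values were used as deposited. One limma 3.58.1 fit (lmFit, eBayes with trend and robust, R 4.3.3) covered all 9 RNA arrays and 36578 probe sets, with 1 coefficient per temperature and Benjamini-Hochberg adjustment over the whole table. The variance trend was chosen because earlier results had shown the replicate SD to fall with level, here with medians of 0.29 in the 7017 and 1.30 below them. Gene lists were described by counts and medians. Alternatives were a constant prior variance, the 6 arrays compared, a replicate block, centring, quantile normalisation, a fit over the 7017 only, limits of 9 and 11, the methods' t-test, the study's thresholds and leaving out each array. On simulated data for 18 °C against 23 °C (36578 probe sets, 200 changed, 5 runs) the fit recovered 22.4% of changes of 1 log2 unit and 74.2% of those of 2, and 3.78% of calls were false. A constant prior recovered 0%. The simulated noise was normal and independent between arrays, with each probe set's observed SD and no shift of whole arrays. These shares therefore hold for that setting and do not give the share of false calls in the real data.

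Named were the 15 largest called rises and falls with a usable name, up to 4 called per list and direction, the study's transcription factors, and the 2 largest unnamed in each direction. Other genes were chosen after their values were seen. They were those in the step comparison, those that did not pass, called list members beyond the 4 and S-adenosyl-L-homocysteine hydrolase. Members and lists were chosen with earlier results of these data known. After values were seen, mismatched entries were removed, glycolysis and proteasome lists were added, and tonoplast proteins joined the aquaporins. Array symbols came from the platform annotation. The study's supplementary comparison columns (fold changes and p-values) were not used, only their gene descriptions.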

Additional observations from a re-analysis of the deposited data

How the results depend on the processing

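The counts turned on how the spread was estimated. With a constant prior variance 0 of the 7017 probe sets passed for 18 °C against 23 °C (781 at an unadjusted p under 0.05), 0 for the step difference and 0 for 23 °C against 27 °C. The methods' t-test gave 1 and 0 for the temperature steps, and 0 for 18 °C against 23 °C at the study's thresholds. Those thresholds (adjusted p under 0.01, beyond 1 log2 unit), applied to the limma fit, gave 87, 30 and 62 in the same order of comparisons. A fit over the 7017 alone gave 798, 477 and 524. With the 6 arrays of a comparison only, 138 and 147 passed for the temperature steps. Leaving out 1 array gave 100 to 233, 40 to 102 and 85 to 231. Limits of 9 and 11 gave 318 and 263 at 18 °C against 23 °C.

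Deviations of same-numbered arrays correlated at -0.03 to 0.21 and those of differently numbered arrays at -0.18 to 0.12. With 3 arrays per temperature these values cannot decide whether the numbers pair the leaflets. The main fit therefore left the replicate number out, and the block was an alternative. With the replicate block 258, 118 and 217 probe sets passed, and 13 of 86 named probe sets lost their call, among them PRP2, the COBRA-like protein, the peroxidase, WRKY23 and starch branching enzyme 2.2 (adjusted p = 0.0529 to 0.0907), so that 2 cell wall rises and no transcription factor rise were left. Centring ended 7 named calls and quantile normalisation 3, the 6-array fit 32 and single omissions 12 to 38. MYB173, at -0.05 and not called, lay at 0.058 with arrays centred and between -0.1664 and 0.1091 when 1 array was left out, the highest without 23 °C replicate 2. In the 6-array fit 1 rise was left for protein synthesis and for the cell wall, 2 for the proteasome and 3 for mitochondrial respiration. The median replicate SD was 0.29 in the 7017 and 1.30 below the limit of 10, which bounds what 3 arrays can detect.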

Other observations

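Among the 29561 probe sets with a mean under 10, 45 passed at 18 °C against 23 °C, 22 higher and 23 lower, where replicate spread was wide. A CCT motif gene had 11.92, 12.17 and 11.72 at 18 °C, against 8.72, 6.67 and 8.15 at 23 °C (4.09 ± 0.48, adjusted p = 0.00311, limma). OAS-TL7, an array symbol of the cysteine-making family in which OAS-TL3 fell, had 11.69, 11.16 and 11.19 at 18 °C, against 8.40, 8.92 and 7.08 at 23 °C (3.21 ± 0.47, adjusted p = 0.00891). An S-adenosylmethionine-dependent methyltransferase had 2.19, 2.18 and 3.06 at 18 °C, against 8.47, 9.38 and 8.49 at 23 °C (-6.30 ± 0.88, adjusted p = 0.00664). These 3 were chosen after their values were seen.

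Other genes, likewise chosen after their values were seen, rose, among them a peptidase of the M28 family (1.71 ± 0.20, adjusted p = 0.00272), the protease FTSH protease 8 (1.43 ± 0.17, adjusted p = 0.00337) and a dolichyl-diphosphooligosaccharide-protein glycosyltransferase (1.24 ± 0.16, adjusted p = 0.00417), which adds sugar chains to proteins. FTSH protease 8, which acts on photosystem II in Arabidopsis chloroplasts, had 16.0032, 15.93 and 15.80 at 18 °C, against 14.24, 14.90 and 14.30 at 23 °C. Its groups did not overlap, and all 3 calls held when any single array was left out. NRP-A, an array symbol, rose at both steps, by 1.27 ± 0.21 at 23 °C against 27 °C (adjusted p = 0.0213) and by 1.47 ± 0.21 at 18 °C against 23 °C (adjusted p = 0.00818), the second call ending without 23 °C replicate 3 or 18 °C replicate 1 (adjusted p = 0.0521 to 0.0571). A haloacid dehalogenase-like hydrolase rose at both steps too, by 2.62 ± 0.23 (adjusted p = 0.000757) and 1.99 ± 0.23 (adjusted p = 0.00297), with 14.40, 14.65 and 14.82 at 18 °C, against 12.81, 12.73 and 12.36 at 23 °C and 10.49, 9.92 and 9.64 at 27 °C.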
